A study of Homo sapiens with 16 samples.

Results

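Clones C and A of KMS12PE, a human myeloma cell line that carries t(11;14), were compared with each other: both clones are resistant to venetoclax, and no parental library enters the comparison. The 4 libraries were taken by their labels, clone C replicates 1 and 3 against clone A replicates 1 and 3, and are 4 of the 16 libraries of the series. The series holds parental cells and 3 resistant clones each of KMS12PE and of a second myeloma line, KMS27, with 2 libraries per population. Each clone was grown from a single cell after high-dose venetoclax and was kept in 100 nM of the drug, in RPMI-1640 medium with serum, so the clones share the line, the medium, the drug and its dose, and each stands for 1 cell that was selected. KMS12PE clone D, a further resistant clone with 2 libraries (replicates 1 and 3), is given beside the values and entered no main test. The labels do not say that the replicates came from separate cultures, so p-values measure the spread between these libraries, which may be technical.

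Venetoclax binds BCL2, a protein of the mitochondrial surface that holds back the pore formers BAX and BAK1. MCL1 and BCL2L1 do the same work, and the BH3-only proteins, such as BCL2L11 and PMAIP1, occupy these guardians when a cell is stressed. Myeloma cells with t(11;14) place CCND1 under immunoglobulin control and often depend on BCL2. A clone grown from 1 cell also carries whatever expression state and genome that cell had, so 2 clones of one line under one drug can be compared with the drug held equal.

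The libraries held 9081983 and 12796229 counts in clone A and 11512181 and 13674426 in clone C, so that 3 counts corresponded to 0.213 to 0.336 CPM (counts scaled to the library total by the TMM method). Of 12592 genes in the table, 12174 were tested. The table holds genes that reached 5 counts in 4 or more of the 8 KMS12PE libraries, and a gene silent in most of them is therefore not listed. Over 9087 genes the SD of the log2 difference was 0.231 between the clone A libraries, 0.261 between the clone C libraries and 0.243 to 0.329 between libraries of different clones, so genome-wide the clones differed little more than their own replicates. All 9 plasma cell line markers looked for were listed, SDC1 at 214 to 251 CPM over the 4 libraries. Of 21 markers of other cell types, CD8A (2.85 to 5.49 CPM) and EPCAM (93.4 to 110 CPM) were listed.

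Clone C differed from clone A at 185 genes by edgeR's quasi-likelihood test at an adjusted p under 0.05, which is 1.52% of the genes tested. Of these, 82 were higher in clone C (0.674%) and 103 lower (0.846%), and 52 and 66 of them by at least 2-fold. The called genes were not spread evenly over the genome: 61 of the 103 lower genes lie at the end of the long arm of chromosome 17 and 8 at the tip of the short arm of chromosome 7. The other 34 lower genes and all 82 higher genes lie elsewhere or have no position, among them BCL2, NR3C1, FAS and FN1 on the higher side and CCR9, CCR2, SQSTM1 and SYK on the lower. The libraries of the clones did not overlap at any called gene, and they did not overlap at 38.1% of all genes tested. With the replicate numbers 1 and 3 as a block in edgeR, 795 genes were higher and 589 lower. A gene without a call in the main fit may therefore have one with the block. Fewer genes were called when 1 clone C library was left out: without replicate 1 there were 36 higher and 64 lower, and without replicate 3 there were 53 higher and 90 lower.

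**Figure D1:**
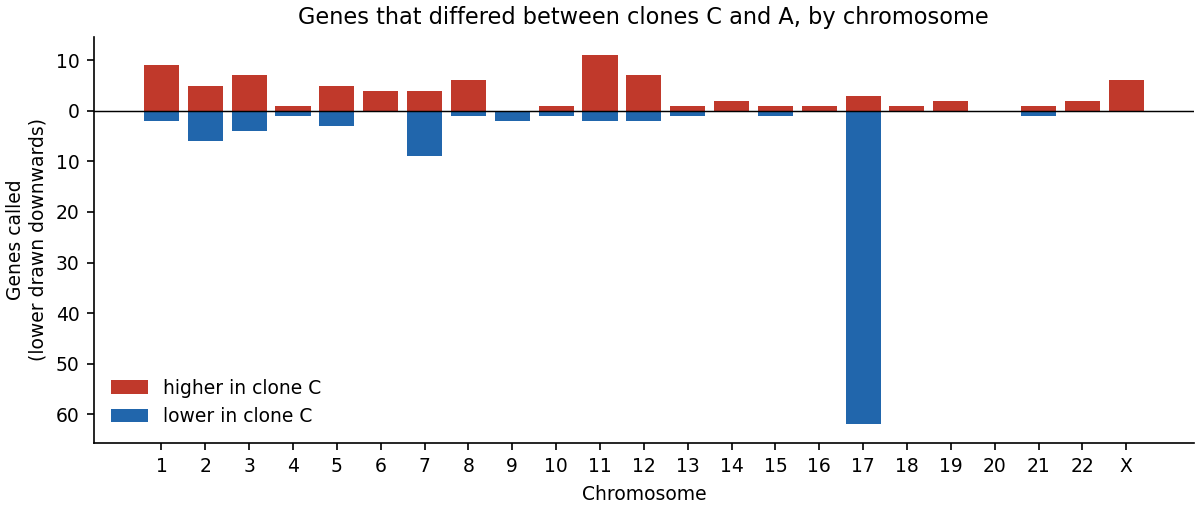
Number of genes per chromosome with an adjusted p under 0.05, drawn upwards where the level was higher in clone C than in clone A and downwards where it was lower, over the 178 called genes with a known position. Chromosome 17 holds the tallest bar, and 61 of its lower genes lie in the end of the long arm.

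The largest block was the end of 17q, from the end of FBF1 to the end of the last tested gene (chromosome 17, 75941141 to 83095119, 7.154 Mb, GRCh38). It holds 91 tested genes, of which 89 had a log2 fold change (log2FC, clone C minus clone A) below 0, 61 were called lower and 0 higher, and DESeq2 and limma-voom also called 0 higher. The median log2FC was -1.05 (quartiles -1.22 and -0.91), a ratio of 0.484, beside 0.01 over all genes tested. Its limits were set after the values were seen, so the count and the median describe the block and carry no test of their own. Against the clone A mean, the median gene of the block lay at 0.01 in clone A replicate 1, -0.01 in clone A replicate 3, -1.08 in clone C replicate 1, -0.94 in clone C replicate 3, -0.02 in clone D replicate 1 and 0.03 in clone D replicate 3. Both clone C libraries were low and the 4 libraries of clones A and D lay together. Along the rest of chromosome 17, 610 genes were tested, of which 3 were higher and 1 lower, and their median log2FC was 0.00 to 2 decimals (-0.0013).

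The change at the boundary was abrupt. MRPL38, a mitochondrial ribosomal protein gene shortly before the block (75898643 to 75905413), had 68.1 and 67.5 CPM in clone A and 95.4 and 86.3 in clone C (log2FC 0.42, adjusted p = 0.108). FBF1, the tested gene that comes last before the block, had 3.14 and 5.44 CPM in clone A and 2.83 and 4.91 in clone C (log2FC -0.16, SE 0.38, adjusted p = 0.964). SRP68, a subunit of the signal recognition particle that lies 0.098 Mb into the block, had 191 and 184 CPM in clone A and 85.9 and 79.3 in clone C (log2FC -1.18, SE 0.09, adjusted p = 0.00156). The libraries of the clones overlapped at FBF1 and did not at MRPL38 and SRP68, where the differences had opposite signs. They did not overlap at 38.1% of all genes tested. Within the block the exceptions were few. GAA, the lysosomal alpha-glucosidase, and MXRA7 had log2FC 0.09 and 0.15, and 3 further genes that were not called had small differences: the splicing factor SRSF2 (log2FC -0.24, adjusted p = 0.433), the cytoplasmic actin ACTG1 (-0.47, adjusted p = 0.267, and 0.00149 with DESeq2) and the metalloproteinase inhibitor TIMP2 (-0.54, adjusted p = 0.406, and 0.0149 without clone A replicate 3).

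**Figure D2:**
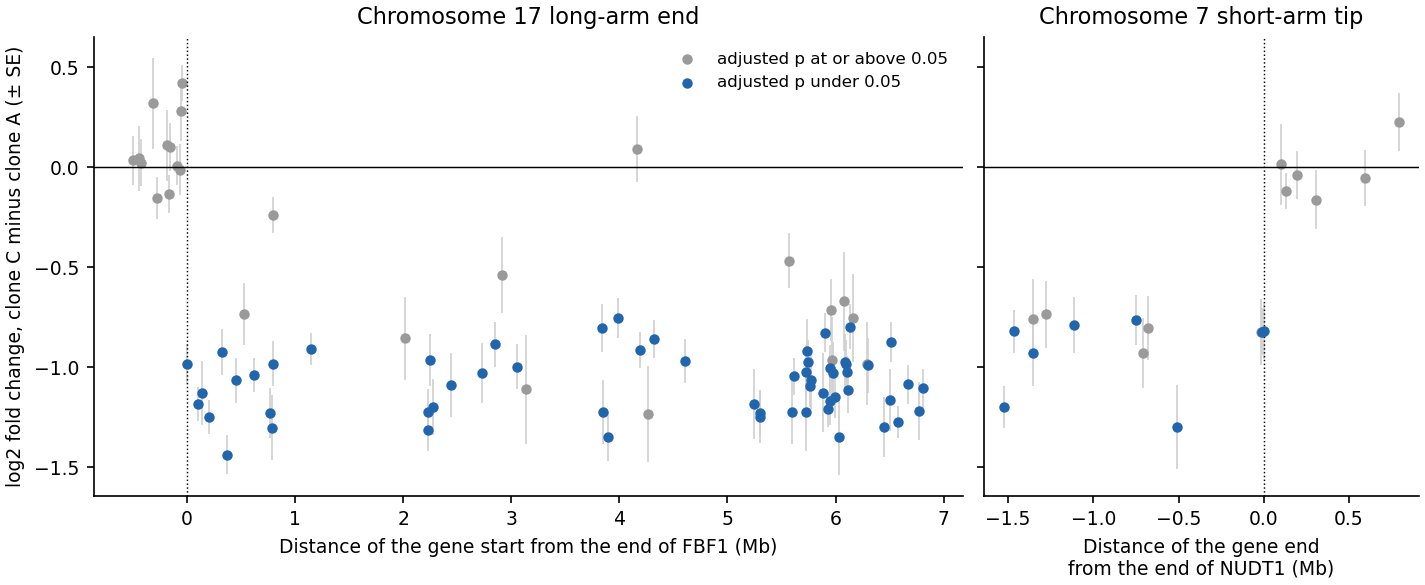
Log2 fold change of each gene whose mean reached 3 log2 CPM, clone C minus clone A, with its standard error, against the distance in Mb from the end of FBF1 on chromosome 17 (left) and from the end of NUDT1 on chromosome 7 (right). Blue points have an adjusted p under 0.05, and NOTUM, whose mean is lower, is not drawn. The level drops by about 1 log2 unit beyond FBF1 and stays low to the chromosome end, with the exceptions named in the text.

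Genes of cell division were among the members of the 17q block. BIRC5, which encodes survivin, an inhibitor of apoptosis that also serves the mitotic spindle, had 192 and 157 CPM in clone A, 84.5 and 67.3 in clone C and 190 and 155 in clone D (log2FC -1.20, SE 0.14, adjusted p = 0.00871). TK1, the thymidine kinase of S phase, had 133 and 111 CPM in clone A, 54.8 and 49.5 in clone C and 101 and 79.0 in clone D (log2FC -1.22, SE 0.12, adjusted p = 0.00363). In both genes the clone C libraries were the lowest of the 6. Of 36 tested mitosis and G2/M genes BIRC5 was the 1 called in the main fit, and the median log2FC was -0.03. Of 40 tested replication and S phase genes TK1 was the 1 called, and the median was -0.06. Small differences still lay mostly on the lower side, with 24 of the 36 and 33 of the 40 below 0, beside 48.9% of all genes tested.

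Metabolic and secretory genes of the block fell too. PYCR1, which makes proline in mitochondria, had 251 and 226 CPM in clone A and 116 and 99.8 in clone C (log2FC -1.15, SE 0.11, adjusted p = 0.00347). P4HB, a protein disulfide isomerase of the endoplasmic reticulum, had 653 and 589 CPM in clone A and 359 and 340 in clone C (log2FC -0.83, SE 0.10, adjusted p = 0.00844). FASN, fatty acid synthase, had 598 and 504 CPM in clone A and 299 and 334 in clone C (log2FC -0.80, SE 0.11, adjusted p = 0.0192), and the adjusted p was 0.0788 without clone C replicate 1 and 0.0509 with all 8 libraries. The libraries of the clones did not overlap at any of these genes, as at every called gene. Their pathways again held no other call on the lower side: 1 of 30 amino acid stress genes (median log2FC -0.10), 1 of 32 unfolded protein response genes (-0.06) and 1 of 24 fatty acid synthesis genes (0.04) was called, and each was the gene of the block.

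The smallest p-values of the block were those of FOXK2, PRPSAP1 and RNF157. FOXK2, a forkhead transcription factor, had 188 and 184 CPM in clone A, 76.5 and 77.3 in clone C and 185 and 182 in clone D (log2FC -1.28, SE 0.08, adjusted p = 0.0012). PRPSAP1, a partner of the enzyme that makes phosphoribosyl pyrophosphate, had 67.3 CPM in both clone A libraries and 24.6 and 25.1 in clone C (log2FC -1.44, SE 0.09, adjusted p = 0.0013). RNF157, a ubiquitin ligase, had 117 and 114 CPM in clone A and 48.1 and 48.9 in clone C (log2FC -1.25, SE 0.08, adjusted p = 0.0013). These 3 genes were picked by p-value, which favours genes with close replicates and a wide gap between the clones. ARHGDIA fell by 1.21 on the log2 scale, the vesicle protein gene SYNGR2 by 1.31 and OGFOD3 by 1.30. METTL23 and ASPSCR1 fell by 1.30 and 1.35, with adjusted p-values of 0.0628 and 0.0883 without clone C replicate 1.

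NOTUM and SPHK1 had larger differences than the rest of the block. NOTUM, a secreted enzyme that inactivates Wnt ligands, had 47 and 52 counts in clone A, 0 in both clone C libraries and 30 and 39 in clone D. Against a floor of 3 counts over the clone, its level was at least 38.4-fold lower in clone C than in clone A, where the median gene of the block was near 0.484 of its clone A level. SPHK1, which makes sphingosine 1-phosphate, had 3.70 and 3.65 CPM in clone A, 0.53 and 0.569 in clone C and 4.72 and 4.18 in clone D (log2FC -2.71, SE 0.37, adjusted p = 0.0161). Its clones did not overlap, as at every called gene. Its call was lost without clone C replicate 1 (log2FC -2.67) or replicate 3 (-2.77). In bulk libraries a lower level in every cell and the absence of a transcript from part of the cells cannot be told apart.

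A shorter block of lower genes lay at the tip of 7p, up to the end of NUDT1 (chromosome 7, 549197 to 2251146, 1.702 Mb, GRCh38). All 17 tested genes had a log2FC below 0, 8 were called lower, and the median log2FC was -0.82, a ratio of 0.566. These limits too were set after the values were seen. Unlike the 17q block, clone D lay with clone C: against the clone A mean the median gene was at -0.81 and -0.79 in the clone C libraries and at -0.71 and -0.79 in the clone D libraries. The next tested gene beyond NUDT1, the sorting nexin gene SNX8, had a log2FC of 0.01. Elsewhere on chromosome 7, 4 of 553 tested genes were higher and 1 lower.

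PRKAR1B, a regulatory subunit of protein kinase A, had 56.2 and 53.6 CPM in clone A, 24.9 and 22.9 in clone C and 32.3 and 23.5 in clone D (log2FC -1.20, SE 0.11, adjusted p = 0.00338). DNAAF5, a factor that assembles dynein arms, fell by 0.82 on the log2 scale (adjusted p = 0.0135), as did MRM2, a methyltransferase of mitochondrial ribosomal RNA (adjusted p = 0.020). ELFN1-AS1, an antisense transcript, fell by 1.30 (adjusted p = 0.0319), and since the counting is not known to use strand its reads cannot be told apart from those of an overlapping gene. The clone A libraries were the highest of the 6 at each of these genes. Both DNAAF5 and ELFN1-AS1 lost their calls without clone C replicate 1, but their differences stayed, with log2FC -0.83 and -1.42. ELFN1-AS1 also lost its call without clone C replicate 3 (log2FC -1.19). Such fits hold 1 clone C library, so a lost call there does not show that 1 library made the difference.

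A weaker shift ran along the end of the short arm of chromosome 2, up to the end of WDR43. Of 100 tested genes there, 89 had a log2FC above 0, beside 51.1% of all genes tested. The median was 0.20, with 0.22 and 0.16 in the clone C libraries and -0.33 in both clone D libraries against the clone A mean. 2 of the genes were called higher and 1 lower. WDR35, a component of the retrograde intraflagellar transport complex, had 66.4 and 68.6 CPM in clone A and 101 in both clone C libraries (log2FC 0.58, SE 0.08, adjusted p = 0.0187), and TSSC1 rose by 0.90 (adjusted p = 0.0296, and 0.0601 with clone D in the fit). Both calls were lost without clone C replicate 1 (adjusted p 0.0735 and 0.098), and WDR35 also without either clone A library (0.0526 without replicate 1 and 0.0604 without replicate 3). IFT172, a component of the anterograde complex, went the other way, with 25.3 and 29 CPM in clone A, 12.3 and 10.6 in clone C and 22.8 and 25 in clone D (log2FC -1.25, SE 0.15, adjusted p = 0.0102). Of 213 windows of 10 Mb with at least 20 tested genes, 203 had a median log2FC within 0.1 of 0, and the 4 windows at 0.15 or beyond were 2 on the end of 17q and 2 on 2p. Of the other 6 windows at 0.1 or beyond, 5 lay on chromosome 5, all below 0 (-0.10 to -0.14). Along chromosome 5 as a whole 341 of 509 tested genes had a log2FC below 0 (median -0.08), beside 48.9% of all genes tested. Of the 509, 5 were called higher and 3 lower.

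BCL2, the target of the drug, was higher in clone C. It had 632 and 603 CPM in clone A, 1016 and 951 in clone C and 814 and 820 in clone D (log2FC 0.67, SE 0.10, adjusted p = 0.0189). The clones did not overlap, as at every called gene, and clone D lay between them. The call was lost without clone A replicate 1, clone A replicate 3 or clone C replicate 1, where the log2FC was 0.70, 0.63 and 0.62. Those fits hold 1 library of a clone. BCL2 kept its call under the other alternatives run. The other tested guardians were not called, with log2FC 0.03 for MCL1 (adjusted p = 0.977), -0.12 for BCL2L1 (adjusted p = 0.909) and -0.21 for BCL2L2.

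Of 9 tested pro-apoptotic BCL2 family genes 0 were called by edgeR, DESeq2 or limma-voom, 1 had an unadjusted p under 0.05 in edgeR, and their median log2FC was 0.16. PMAIP1, the BH3-only protein NOXA, had 27.1 and 24.6 CPM in clone A and 40.7 and 35.7 in clone C (log2FC 0.56, SE 0.12, adjusted p = 0.114). With the replicate number as a block in edgeR, PMAIP1 was called higher (adjusted p = 8.3e-07). BCL2L11, which encodes BIM, had a log2FC of 0.16 (adjusted p = 0.606), BMF 0.35 and BBC3, at 1.90 to 2.92 CPM, 0.31. The pore formers BAX (-0.07) and BAK1 (-0.02) and the BH3-only gene BID (close to 0) differed by less than their standard errors. Among 10 death receptor genes 1 was called: FAS, the receptor of FAS ligand and a p53 target, had 5.37 and 5.91 CPM in clone A, 15.6 and 12.8 in clone C and 17 and 19.0 in clone D (log2FC 1.33, SE 0.20, adjusted p = 0.0239, and 0.143 without clone C replicate 1). FAS was also the 1 called of the 24 tested genes on a list of p53 targets that does not hold PERP. Of these 24, 19 had a log2FC above 0 (median 0.15), with CDKN1A at 0.18 and MDM2 at 0.10, neither called. Over all genes tested 51.1% had a log2FC above 0 and 1.52% were called.

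NR3C1, the glucocorticoid receptor through which dexamethasone acts in myeloma, had 126 and 118 CPM in clone A, 197 and 195 in clone C and 115 and 110 in clone D (log2FC 0.69, SE 0.08, adjusted p = 0.00941). Clone C was the highest of the 3 clones. Of 12 tested genes of the receptor and its targets NR3C1 was the 1 called, and the targets FKBP5 (log2FC 0.12) and TSC22D3 (-0.75) were not. ETS1, a lymphoid transcription factor, had 93.8 and 94.8 CPM in clone A and 163 and 148 in clone C (log2FC 0.72, SE 0.09, adjusted p = 0.010), and 0 and 0.0908 CPM in clone D. TNFAIP3, which encodes the NF-kB inhibitor A20, rose by 0.55 (adjusted p = 0.0461), and the call was lost without clone A replicate 1 (0.0842), clone A replicate 3 (0.14) or clone C replicate 3 (0.112), with limma-voom (0.0511), with clone D in the fit (0.135) and with all 8 KMS12PE libraries (0.10).

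FN1, which encodes fibronectin, had 109 and 116 CPM in clone A, 364 and 427 in clone C and 35.4 and 36.4 in clone D (log2FC 1.81, SE 0.11, adjusted p = 0.0012). The hyaluronan receptor gene CD44 had 2 and 3 counts in clone A, 50 and 42 in clone C and 1 and 0 in clone D (log2FC 3.94, SE 0.49, adjusted p = 0.0105, and 0.0589 without clone C replicate 1). Clone C alone of the 3 clones had more than 3 counts of CD44 in a library. ST14, the membrane protease matriptase, rose by 1.42 and CSF2RB, the shared beta chain of the interleukin-3 and GM-CSF receptors, by 1.32 (adjusted p = 0.024, 0.0875 without clone C replicate 3 and 0.0703 with all 8 libraries). NCR3LG1, the ligand B7-H6 of a natural killer cell receptor, had 2.02 and 1.71 CPM in clone A, 9.63 and 13.2 in clone C and 27.9 and 35.4 in clone D (log2FC 2.62, SE 0.27, adjusted p = 0.00588). The adhesion molecule gene CADM1 fell by 1.18 (adjusted p = 0.0383), a call lost without clone A replicate 3 (0.0511), clone C replicate 1 (0.0966) or clone C replicate 3 (0.128), with clone D in the fit (0.0882) and with all 8 libraries (0.062).

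Chemokine receptors gave both calls among 27 tested chemokine and cytokine receptor genes. CCR9, the receptor that directs lymphocytes to the gut, had 210 and 193 CPM in clone A, 62.4 and 50.8 in clone C and 0.472 and 1.27 in clone D (log2FC -1.83, SE 0.12, adjusted p = 0.0012). CCR2, the receptor of CCL2, had 43.6 and 43.7 CPM in clone A, 18.6 and 14.0 in clone C and 5.35 and 6.81 in clone D (log2FC -1.42, SE 0.15, adjusted p = 0.00652). Both receptors had the same order, clone A highest, clone C next and clone D lowest, with no overlap between clones. Other large falls had the same order: LIX1 (log2FC -2.01), the gluconeogenic enzyme gene FBP1 (-1.49) and CALCRL (-1.42), a receptor for adrenomedullin and CGRP, with an adjusted p of 0.127 for CALCRL without clone C replicate 1.

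SQSTM1, the autophagy cargo receptor p62, had 101 and 99.3 CPM in clone A, 43.5 and 41.6 in clone C and 44.6 and 40.0 in clone D (log2FC -1.24, SE 0.09, adjusted p = 0.00147). Clones C and D overlapped, and clone A lay above both. SQSTM1 was the 1 called of 30 lysosome and autophagy genes, whose median log2FC was 0.04. SAMD9L, an interferon-stimulated gene, fell by 1.06 (adjusted p = 0.00666), while PARP14, of the same list, rose by 1.24 (adjusted p = 0.0262, and 0.0692, 0.098 and 0.0903 without clone A replicate 3, clone C replicate 1 and clone C replicate 3). The other 18 of 20 tested interferon-stimulated genes were not called. HLA-DOA, a modulator of peptide loading, was the 1 called of 18 MHC class II genes (log2FC 1.06, adjusted p = 0.0187, and 0.0611 with clone D in the fit), the respiratory subunit COX6C, whose gene overlaps VPS13B, the 1 of 43 respiratory complex genes (0.75, adjusted p = 0.00806), and the histone variant H2AFX the 1 of 18 histone genes (-0.74, adjusted p = 0.0272, and 0.0942 and 0.0723 without clone C replicate 1 and replicate 3).

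**Figure D3:**
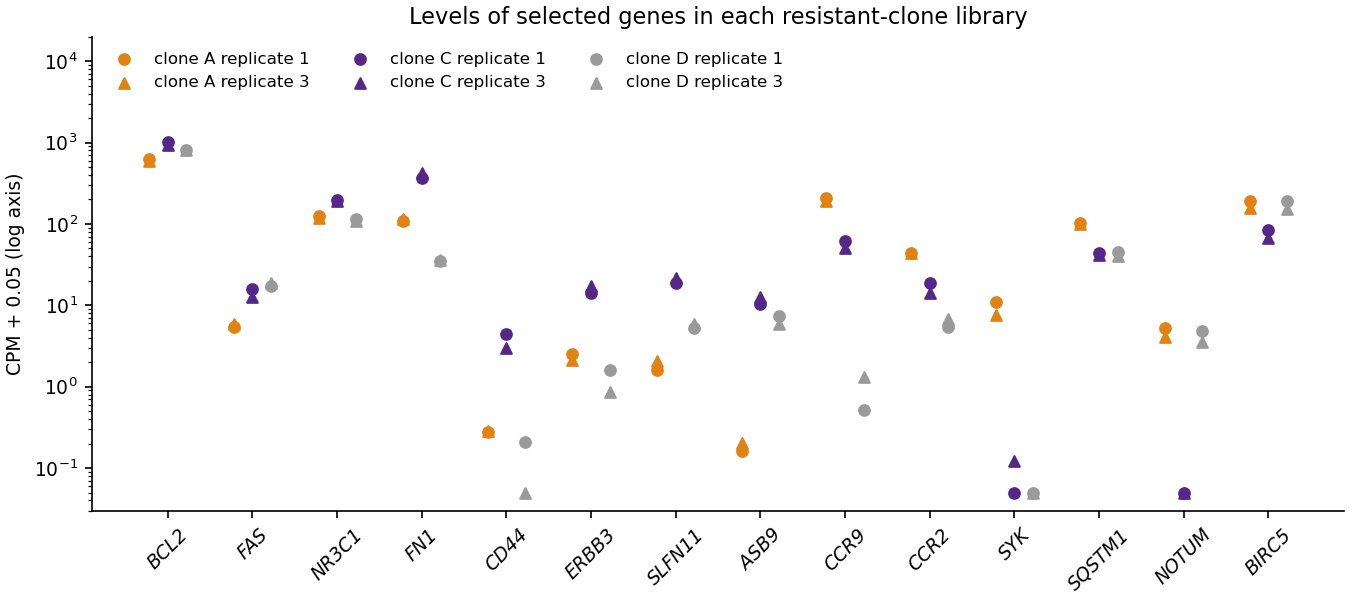
Level of 14 genes in each library of clones A (orange), C (purple) and D (grey), as CPM plus 0.05 on a log axis, with circles for replicate 1 and triangles for replicate 3. NOTUM and SYK sit at or near the bottom in clone C, and CCR9 descends from clone A through clone C to clone D.

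The remaining large rises among genes whose mean reached 3 log2 CPM mixed several roles. CRABP2, a retinoic acid carrier, had 9.29 and 8.08 CPM in clone A and 30.2 and 26.6 in clone C (log2FC 1.71, adjusted p = 0.00343), and MYBPC2, a myosin-binding protein, 11.0 and 12.7 against 31.0 and 40.7 (1.60, adjusted p = 0.00666). DNAJC15, a mitochondrial cochaperone, rose by 1.75 (adjusted p = 0.0883 without clone C replicate 1) and INTU, needed to build cilia, by 1.36 (0.0795 without it). CFAP47 rose by 1.35, and the call was lost without clone C replicate 1 (0.0663) or clone C replicate 3 (0.126), with limma-voom (0.0597) and with clone D in the fit (0.0623). DISC1 rose by 1.17, and its call was lost without clone A replicate 3 (0.0528), clone C replicate 1 (0.0698) or clone C replicate 3 (0.163), and with clone D in the fit (0.0722). Of genes with lower levels, chosen after their values were seen, SLFN11, which blocks stalled replication forks, had 1.57 and 2.02 CPM in clone A, 18.7 and 21.8 in clone C and 5.20 and 5.90 in clone D (log2FC 3.47, adjusted p = 0.0012). The receptor tyrosine kinase gene ERBB3 rose by 2.80, the adhesion molecule gene MCAM by 3.12 and the desmosome-associated gene PERP by 3.45.

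A few genes were nearly silent in 1 of the clones. SYK, the tyrosine kinase that carries the B cell receptor signal, had 97 and 99 counts in clone A, 0 and 1 in clone C and 0 in both clone D libraries. The ratio of clone A to clone C was 228 (exact 95% interval 40.5 to 9058, counting error only). SYK was the 1 called of 17 B cell receptor signalling genes (median log2FC -0.09). CD200, a surface ligand that restrains myeloid cells, had 14 and 15 counts in clone A, 0 in clone C and 14 and 18 in clone D, and was at least 11.3-fold lower in clone C than in clone A (its call was lost without clone C replicate 1 or 3, adjusted p 0.127 and 0.124). CD163L1, a scavenger receptor, had 1 and 0 counts in clone A, 120 and 165 in clone C and 3 and 7 in clone D, a ratio of 245 (interval 43.6 to 9703). ASB9, an adaptor of a ubiquitin ligase, had 1 and 2 counts in clone A, 118 and 177 in clone C and 47 and 64 in clone D, a ratio of 84.5 (interval 28.6 to 412). Clone D was thus with clone C at SYK, with clone A at CD200 and low at CD163L1.

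The 250 bases before the RefSeq start of these 4 genes (GRCh38.p14, 5′ to 3′ on the strand of the gene, CG dinucleotides in capitals) are shown because each gene was nearly silent in 1 clone and clearly counted in the other, and because these stretches differ widely in CG content. The RefSeq start matched the gene start of GENCODE v29 for ASB9, lay 32 bases inside the GENCODE gene for SYK and 809 bases inside for CD200, and lay 35.7 kb inside it for CD163L1, so that the CD163L1 stretch precedes an internal start and not the outermost one. The SYK sequence (chr9:90801569-90801818, plus strand) holds 32 CG, and 9.52% of 35116 RefSeq promoter entries hold at least as many. The CD200 sequence (chr3:112332906-112333155, plus strand) holds 9, near the median of 11 (quartiles 3 and 23). The CD163L1 sequence (chr12:7444154-7444403, minus strand) and the ASB9 sequence (chrX:15270468-15270717, minus strand) hold 1 each, and 93.9% of entries hold at least 1. CG content is a description of the reference sequence, and its part in the differences was not tested.
SYK promoter: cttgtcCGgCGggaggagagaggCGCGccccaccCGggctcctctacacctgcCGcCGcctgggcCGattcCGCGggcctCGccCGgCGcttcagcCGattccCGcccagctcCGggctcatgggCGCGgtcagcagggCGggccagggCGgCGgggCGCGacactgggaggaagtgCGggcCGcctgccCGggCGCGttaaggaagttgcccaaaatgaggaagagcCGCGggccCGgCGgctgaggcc
CD200 promoter: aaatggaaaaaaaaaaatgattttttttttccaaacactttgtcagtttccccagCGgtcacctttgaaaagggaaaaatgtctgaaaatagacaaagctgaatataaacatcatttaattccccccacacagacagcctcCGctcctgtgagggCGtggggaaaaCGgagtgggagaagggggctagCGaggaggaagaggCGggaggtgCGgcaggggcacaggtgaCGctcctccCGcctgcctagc
CD163L1 upstream of the RefSeq start: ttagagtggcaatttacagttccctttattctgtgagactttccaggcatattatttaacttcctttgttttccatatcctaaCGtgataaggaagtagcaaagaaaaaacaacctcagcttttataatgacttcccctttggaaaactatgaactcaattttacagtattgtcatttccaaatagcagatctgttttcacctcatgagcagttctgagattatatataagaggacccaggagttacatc
ASB9 promoter: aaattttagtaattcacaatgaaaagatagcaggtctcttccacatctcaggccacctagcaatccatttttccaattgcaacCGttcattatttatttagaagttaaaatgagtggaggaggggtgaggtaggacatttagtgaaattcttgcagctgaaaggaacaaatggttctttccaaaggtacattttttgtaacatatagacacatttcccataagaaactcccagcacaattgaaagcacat

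Other genes with at most 3 counts over 1 clone were the transcripts CTD-2369P2.12 (386 counts over clone A and 0 over clone C, at least 150-fold, adjusted p 0.055 with all 8 libraries) and LINC00958 (0 and 273, at least 78.2-fold). NELL2, a secreted neuronal factor, had 47 counts over clone A and 0 over clone C (at least 18.2-fold, adjusted p = 0.0611 without clone C replicate 1). MIR568 had 0 and 48 counts (at least 13.7-fold, adjusted p 0.0784 and 0.0731 without clone C replicate 1 and replicate 3, 0.198 with clone D and 0.256 with all 8 libraries). It lies within ZBTB20, which was not called (log2FC 0.98, adjusted p = 0.275), and reads of the host gene and of MIR568 cannot be told apart in these counts.

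**Figure D4:**
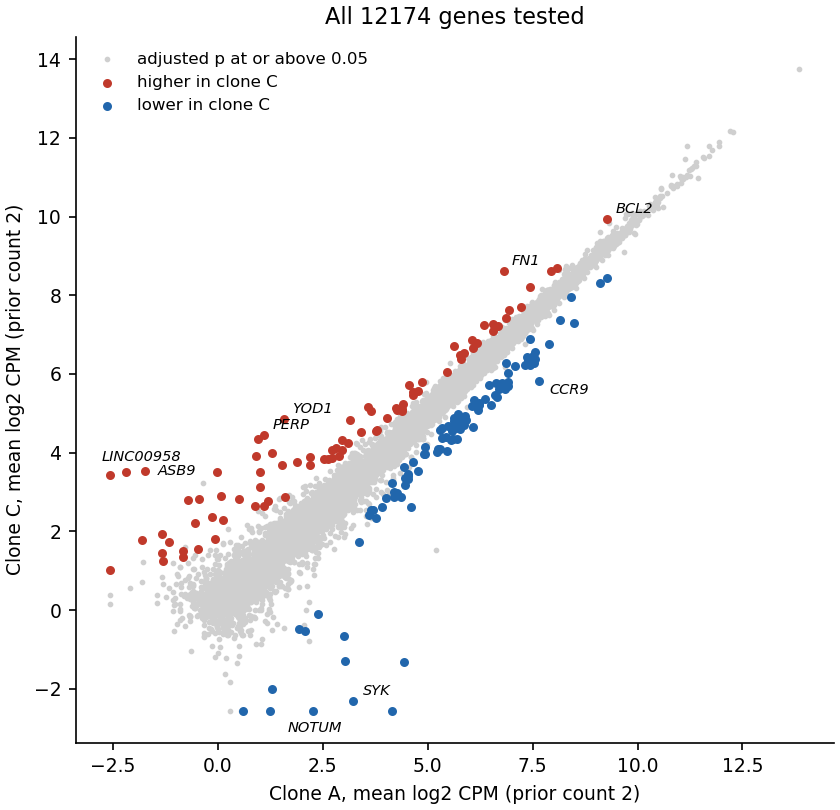
Mean log2 CPM (prior count 2) of each of the 12174 genes tested in clone A (horizontal) and clone C (vertical), with genes higher in clone C in red, lower in blue and the rest in grey. Most genes lie along the diagonal, the blue band below it holds the genes about 1 log2 unit lower, and genes silent in 1 clone lie along the left and lower edges.

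Outside the 17q and 7p blocks, some called genes lay near each other. Among the 109 called genes there with a position, 16 neighbouring pairs lay within 1 Mb, and 13 pairs differed in the same direction. Of all 116 called genes not placed in either block, which include those without a position, 82 were higher and 34 lower. Many pairs would therefore share a direction wherever they lay. Some pairs also share a gene, and no count was made for randomly placed genes, so grouping was not tested. These pairs were picked after their values were seen. CCR9 and CCR2, 451 kb apart on chromosome 3, both fell, and SEMA4A, NES and CRABP2 on chromosome 1 rose by 2.22, 3.78 and 1.71. SLFN11 and SLFN13 on chromosome 17 rose by 3.47 and 0.71, and TNFAIP3 and PERP on chromosome 6 by 0.55 and 3.45. On chromosome 2 CSRNP3 fell by 5.01 and GALNT3 by 2.95, while the sodium channel gene SCN3A, 266 kb from CSRNP3, rose by 0.94 (adjusted p 0.09 with clone D in the fit); GALNT3 had adjusted p-values of 0.0579 and 0.0543 without clone C replicate 1 and replicate 3. YOD1 and PFKFB2 rose by 3.36 and 3.61, but they overlap on opposite strands, so their reads may not have been counted apart. U2AF1L5 (-5.63) and SULT1A4 (1.12) were also called, and both have near-identical copies, so their values are uncertain. U2AF1L5 lost its call with DESeq2 (adjusted p 0.145) and with all 8 libraries (0.11), and SULT1A4 without clone C replicate 1 (0.0883).

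Clone D was set beside both clones at the called genes, as a description with no test. At the 185 called genes clone D was nearer to clone A at 117 and nearer to clone C at 68 (on log2 of CPM plus 0.5). Within the 17q block it was nearer to clone A at 59 of 61 called genes, and within the 7p block nearer to clone C at 8 of 8. Of the 116 called genes not placed in either block, which include those without a position, it was nearer to each clone at 58. At 76 of these 116 it lay outside the range between the 2 clones' means.

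The targets of antibodies, T cell engagers and cereblon drugs gave no calls in the main fit. The DESeq2 and limma-voom fits, like the main fit, held no replicate block, and calls per list with the block are not given. Of 15 tested immunotherapy targets 0 were called by edgeR, DESeq2 or limma-voom, 1 had an unadjusted p under 0.05 in edgeR (GPRC5D), and the median log2FC was 0.02. CD38, the target of daratumumab, had 408 and 389 CPM in clone A and 467 and 436 in clone C (log2FC 0.18, SE 0.09, adjusted p = 0.616). With the replicate number as a block in edgeR, CD38 was called higher (adjusted p = 0.0394). TNFRSF17, which encodes BCMA, had 83.6 and 76.1 CPM in clone A, 81.0 and 74.0 in clone C and 211 and 191 in clone D (log2FC -0.04, SE 0.10, adjusted p = 0.962). SLAMF7, bound by the antibody elotuzumab, had 126 and 134 CPM against 118 and 128 (log2FC -0.08, SE 0.09, adjusted p = 0.891). At CD38 the clones did not overlap, as at 38.1% of all genes tested, and the difference was small. At TNFRSF17 and SLAMF7 they overlapped. GPRC5D was low throughout, with 11 and 17 counts in clone A and 7 and 6 in clone C (log2FC -1.30, SE 0.49, adjusted p = 0.437), and CD48 had a log2FC of -0.18. CRBN, the receptor of lenalidomide and its relatives, and its substrates IKZF1 and IKZF3 had log2FC 0.09, 0.07 and 0.07, and 0 of 16 cereblon ligase and substrate genes were called by any of the 3 tools (1 at an unadjusted p under 0.05 in edgeR). CCND1, the gene moved by t(11;14), had 659 and 691 CPM in clone A and 602 and 636 in clone C (log2FC -0.13, adjusted p = 0.783).

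Several lists had most members on one side of 0 with no or 1 call. The edgeR, DESeq2 and limma-voom fits counted here held no replicate block, and calls per list with the block are not given. The amino acid stress list (27 of 30 below 0) and the replication list (33 of 40 below 0) were among them. For the amino acid stress list the library medians of the clones overlapped (log2 CPM 6.55 and 6.34 in clone A, 6.50 and 6.23 in clone C). Its median log2FC was -0.18 without clone C replicate 1 and -0.03 without clone C replicate 3. The MYC network was not, with 14 genes above 0 and 16 below. Of 28 tested cholesterol synthesis and uptake genes 0 were called by edgeR, DESeq2 or limma-voom, 9 had an unadjusted p under 0.05 in edgeR and 25 had a log2FC above 0 (median 0.17), beside 9.59% and 51.1% of all genes tested, for instance MSMO1 at 0.42 (adjusted p = 0.149). Of 75 ribosomal protein genes 0 were called by any of the 3 tools, 2 had an unadjusted p under 0.05 and 67 had a log2FC below 0 (median -0.09, but -0.0088 without clone A replicate 1 and 0.0028 without clone C replicate 3). Ribosomal protein genes took 6.87% and 6.26% of counts in the clone A libraries and 6.52% and 5.91% in the clone C libraries, so the ranges of the clones overlapped. Of 30 MYC network genes, 35 proteasome genes, 29 glycolysis and hypoxia genes and 24 heat shock chaperones 0 were called by any of the 3 tools, with medians of -0.02, -0.03, -0.08 and -0.06 and with 1, 1, 5 and 0 genes at an unadjusted p under 0.05. The plasma cell list had 1 call among 22 genes, CADM1. JCHAIN, the joining chain of IgA and IgM, had 802 and 844 CPM in clone A and 610 and 494 in clone C (log2FC -0.58, SE 0.12, adjusted p = 0.0942, but 2.2e-05 with DESeq2 and 0.0356 without clone C replicate 1).

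**Figure D5:**
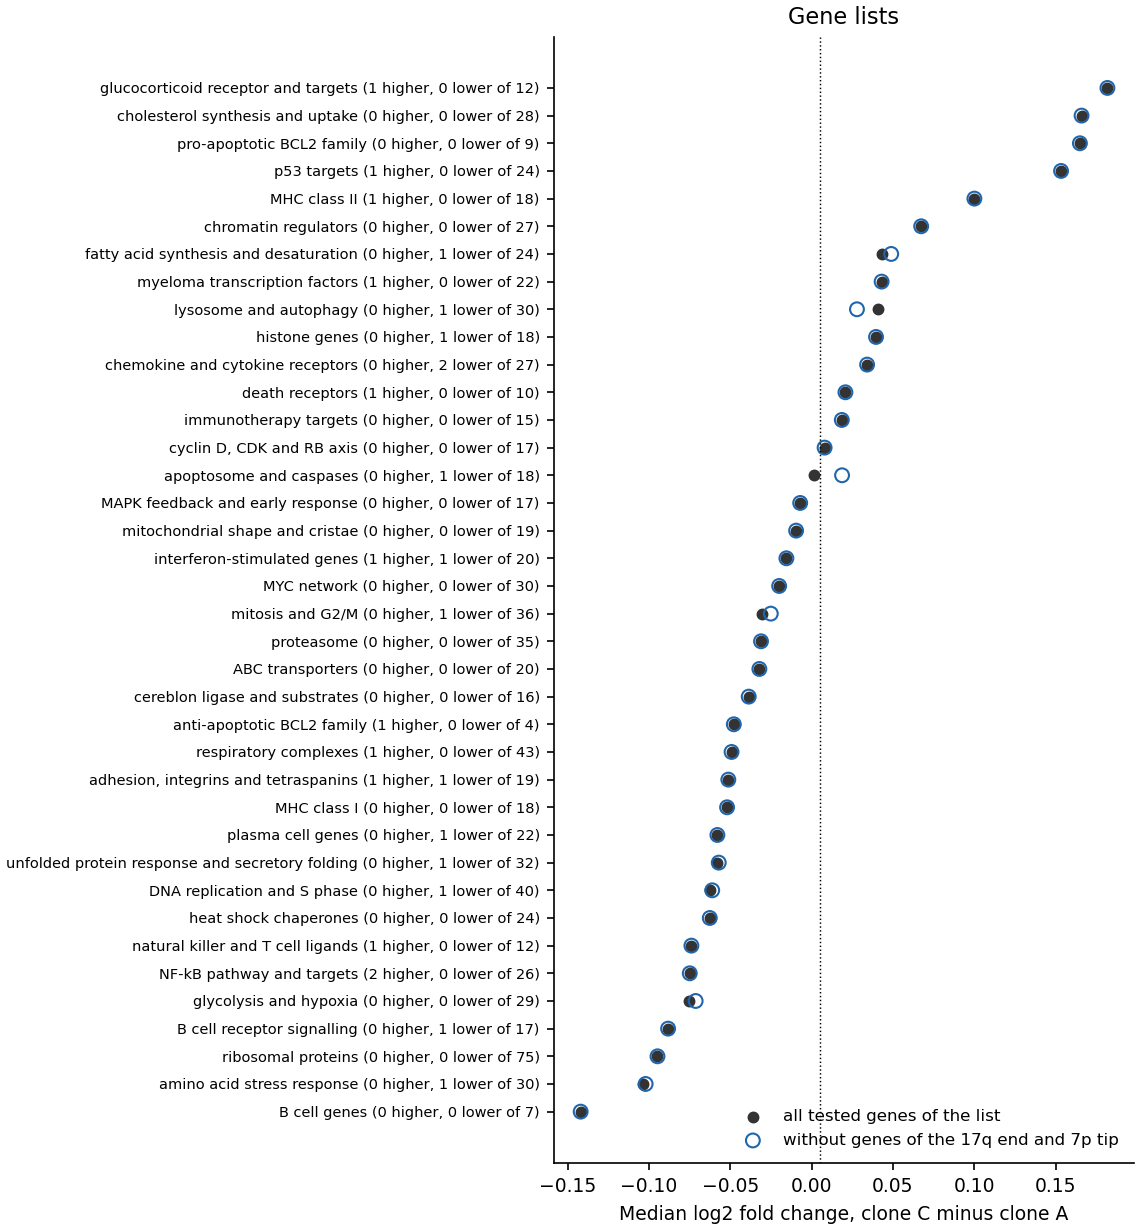
Median log2 fold change, clone C minus clone A, of each gene list with at least 4 tested genes, with the number called higher and lower in brackets. Filled points use all tested genes of a list, open points leave out genes of the 17q and 7p blocks, and the dotted line is the median of all genes tested (0.01). No list median lies beyond 0.2 on either side, and leaving out the blocks moves few of them.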

How the data were processed

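RNA of KMS12PE cells was sequenced from poly-A libraries (Roche Kapa mRNA HyperPrep, per the labels' protocols). The values deposited by the authors are counts, whole numbers per gene symbol and library without normalization. The submitters' processing notes name hg38 as the genome build. The aligner is not given in the sources used here, nor are the counter, the annotation and the strandedness.

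The 4 libraries of clones A and C entered 1 edgeR model (version 4.0.16, R 4.3.3). filterByExpr kept 12174 genes and left out 418, libraries were scaled with TMM, and clone C was tested against clone A with estimateDisp, glmQLFit and glmQLFTest, 2-sided, with Benjamini-Hochberg adjustment over all genes tested and calls under 0.05. The biological coefficient of variation was 10.8%. SE is the absolute log2 fold change over the square root of F. Clone D levels are CPM scaled by TMM over the 6 clone libraries. DESeq2 1.42.0, limma-voom (limma 3.58.1), other scaling and filters, further libraries, a replicate block and leaving out each library were alternatives.

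Positions came from GENCODE v29 (GRCh38) by symbol, for 11386 genes tested and 178 of 185 called. Genes without a position were counted as outside the blocks, though their place is not known here. Promoter sequences came from RefSeq (GRCh38.p14), where 4 of 10 genes matched. Intervals and floors cover counting error only. The members, the 42 gene lists and the regions were chosen with earlier results of these data known. Named were the 12 largest rises and 12 largest falls with a mean reaching 3 log2 CPM, up to 4 called genes per list, called genes with at most 3 counts over 1 clone (up to 6 per direction), a set of apoptosis, surface target and cereblon genes, and up to 3 called genes per region. SRP68, SPHK1, ARHGDIA, MRPL38, FBF1, the exceptions within the 17q block, SNX8, JCHAIN, ZBTB20, uncalled list members, the neighbouring pairs, SLFN11, ERBB3, MCAM, PERP, U2AF1L5 and SULT1A4 were added after their values were seen. Some genes that the rule names are not reported here. Whole-genome sequencing of the clones was not analysed here.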

Additional observations from a re-analysis of the deposited data

How the results depend on the processing

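The counts of calls moved little with the tool, the scaling and the filter: 74 to 82 genes were higher and 101 to 114 lower with DESeq2, limma-voom, RLE size factors, no filter and a stricter filter, beside 82 and 103. With clone D in the fit 56 were higher and 84 lower, and with all 8 KMS12PE libraries 65 and 97. With clone D in the fit the 7p tip had 4 lower genes, beside 8. Of 87 called genes followed by name, calls were lost for 1 with RLE size factors, 2 with DESeq2, 3 with limma-voom, 12 with clone D and 10 with all 8 libraries.

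Leaving out each library in turn gave 36 to 92 higher and 64 to 114 lower genes, 41 to 69 lower genes at the 17q end, 2 to 9 at the 7p tip and 21 to 39 outside both blocks, the lowest each time without clone C replicate 1, where 92 of the 185 calls (49.7%) were kept. The cause was not tested.

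A replicate block on the numbers 1 and 3 gave 795 higher and 589 lower genes, with 87 lower at the 17q end, 15 at the 7p tip and 487 outside both blocks. With the replicate block and clone D these were 603, 453, 85, 13 and 355. All 185 calls were kept under either block, and 8 of 27 named genes without a call gained one: PMAIP1, CD38, MRPL38, JCHAIN, SRSF2, ACTG1, TIMP2 and ZBTB20. The replicate 1 minus replicate 3 differences of the 2 clones correlated at 0.613 across 9087 genes. Between the clones the SD of the log2 difference was 0.246 for replicates 1 and 0.243 for replicates 3. It was 0.329 for A1 with C3 and 0.292 for A3 with C1. What the numbers share was not tested. With 2 pairs, and no label that ties a number to a shared batch, the numbers were not taken to pair the libraries. No called gene changed its direction under the alternatives run. Differences near 0 did when 1 library was left out, among them FBF1, TNFRSF17, CRBN, IKZF1, IKZF3, BAK1, BID, MCL1, GAA, MXRA7 and some list medians. Counts under 3 per library limit statements on genes that are listed at 0.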
